A study of Mus musculus with 3 samples.

Results

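A set of 10 antigen presentation genes with Cd74 was described in KO-actin cells, which are β-actin knockout mouse embryonic fibroblasts (MEFs) made to express the protein with an added nuclear localization signal (NLS). These 10 genes, of 46603 counted, were chosen by name with their levels in these libraries already known, to set Cd74 beside its class II partners and beside the class I pathway. Their levels are therefore given as a description, with no test. Cd74, H2-Aa, H2-Ab1 and Ciita form the class II side, and H2-K1, H2-D1, B2m, Tap1, Tapbp and Psmb8 the class I side.

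RNA-Seq of polyadenylated RNA was available for 3 libraries, all of this 1 genotype, so no comparison between conditions was made. Knockout and wild-type libraries were not used here. The strain of the MEFs is not given in the sources used here, nor is it stated whether the libraries came from separate cultures, so the tests below measure only the spread between these samples, which may be technical.

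MHC class I molecules, made of a heavy chain such as H2-K or H2-D and the light chain β2-microglobulin, show peptides from the cell's own proteins and are carried by most nucleated cells. The proteasome cuts those proteins, the TAP transporter brings the peptides into the endoplasmic reticulum, and tapasin bridges TAP to empty class I molecules. MHC class II molecules are made mainly by professional antigen presenting cells such as B cells, dendritic cells and macrophages. The invariant chain, the product of Cd74, fills the groove of new class II dimers and escorts them to endosomes, and it also acts at the cell surface as a receptor for the cytokine MIF. CIITA is the coactivator that class II genes depend on, and interferon gamma induces it in cells that otherwise lack class II.

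The libraries held between 44383636 and 49932446 counts. Genes are called above the floor here if each library gave them over 3 counts, since a count of 0 allows up to 3. The floor lay between 0.0601 and 0.0671 CPM, which are counts put on a common total by scaled library size, and is for counting error alone. Actb, knocked out and expressed again, stood at 1078, 1114 and 1063 CPM in replicates 1, 2 and 3, and gene counts do not separate the NLS-tagged RNA from RNA of the knocked-out locus. Replicate 2 stood apart. Over the 13814 genes for which each library gave 10 counts or more, the chi-square per degree of freedom was 11.1 between replicates 1 and 2 and 10.5 between replicates 2 and 3, against 3.70 between replicates 1 and 3. All 7 fibroblast markers examined were above the floor, from Thy1 with 0.836 CPM to Vim with 4563 CPM.

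Of the 10 genes, 8 were above the floor. All 6 class I genes were among them, together with Cd74 and H2-Ab1, while H2-Aa and Ciita were not. The same 8 also passed limits of 10 counts and of 1 CPM in each library. Of the 10 genes, 7 lie on chromosome 17, where the mouse MHC is.

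**Figure D1:**
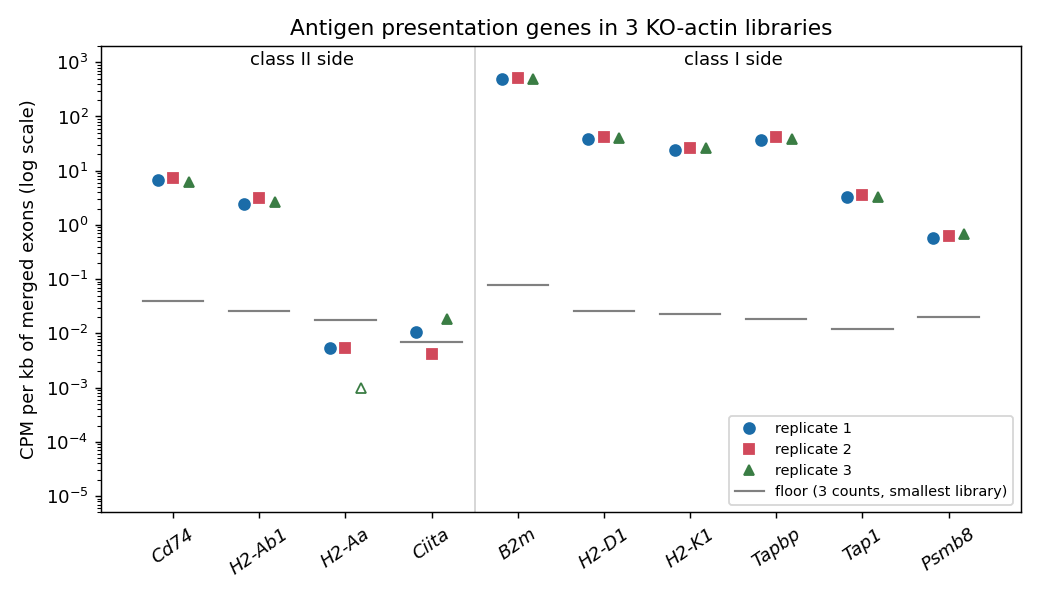
Level of each of the 10 genes in each of the 3 KO-actin libraries, in CPM per kilobase of merged exons on a log axis. Grey bars mark the floor of 3 counts in the smallest library, the open triangle marks a count of 0, and only H2-Aa and Ciita have points under their bar.

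Cd74 spans 60803848 to 60812652 on the plus strand of chromosome 18 (GRCm38). Its level in replicates 1, 2 and 3 was 11.2, 12.3 and 10.3 CPM, with 560, 606 and 458 counts behind the values. The mean was 11.3 ± 1.02 CPM (SD, n = 3). Levels of different genes were compared mainly after division by length. Where counts or CPM of different genes stand side by side, length is not accounted for. Divided by length, Cd74 had 6.70 ± 0.610 CPM per kilobase of merged exons (SD, n = 3). This is a middling level. It lay above 50.9% of the 12726 protein-coding genes above the floor, whose median was 6.43 and whose quartiles were 1.53 and 18.3 CPM per kilobase.

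H2-Ab1, the beta chain of the I-A class II molecule, lies on chromosome 17 from 34257689 to 34269419. Replicates 1, 2 and 3 held 308, 395 and 307 counts of it. The level was 6.17, 8.02 and 6.87 CPM in turn, a mean of 7.02 ± 0.931 CPM (SD, n = 3). Replicate 2 was the highest of the 3. Per kilobase of merged exons the mean was 2.73 ± 0.363 (SD, n = 3), above 32.3% of the detected coding genes. The annotated gene begins with a non-coding transcript upstream of the coding ones, and counts per gene do not tell these transcripts apart.

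H2-Aa encodes the alpha chain that pairs with the H2-Ab1 product, and lies on chromosome 17 from 34282744 to 34287823. Replicates 1, 2 and 3 held 1, 1 and 0 counts of it. All 3 values were under the floor, so its RNA was not detectable at this depth. H2-Ab1 was at least 151-fold above the floor of H2-Aa in each library, per kilobase of merged exons with the floor of 3 counts taken per library, and at least 95.2-fold above it per kilobase of 1 principal mRNA. Gene counts for the 2 chains of the I-A dimer thus stood far apart, with no overlap between their libraries. How much of the H2-Ab1 counts came from coding transcripts was not tested.

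Ciita lies on chromosome 16 from 10480059 to 10528418. Replicates 1, 2 and 3 held 5, 2 and 8 counts of it, so that replicates 1 and 3 were above the floor and replicate 2 was not. The level was 0.100, 0.0406 and 0.179 CPM in turn. Without replicate 2, Ciita would have counted as above the floor, and 9 of the 10 genes in place of 8.

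Cd74 was set against the classical class II chains, H2-Aa, H2-Ab1, H2-Eb1, H2-Eb2 and H2-Ea-ps, summed. H2-Eb2 and H2-Ea-ps had 0 counts in every library, so they add to the sum only where chains are raised to the floor. Per kilobase of merged exons, the ratio in replicates 1, 2 and 3 was 2.74, 2.23 and 2.21, a mean of 2.39 ± 0.301 (SD, n = 3). Cd74 was higher in 3 of 3 libraries. The excess depended on length: the ratio was 1.57 on CPM with no length and 1.36 ± 0.160 per kilobase of 1 principal mRNA. Against H2-Ab1 alone it was 2.47 ± 0.271 per kilobase of merged exons and 1.39 per kilobase of 1 mRNA. With chains under the floor raised to it, the ratio to the sum was 2.32 ± 0.287.

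Of the 10 class II chain genes matched, 4 were above the floor, namely H2-Ab1, H2-DMa, H2-DMb1 and H2-DMb2. H2-DM exchanges the remnant of the invariant chain for peptide. Its alpha chain H2-DMa had 5.74 ± 0.913 CPM (SD, n = 3), while the beta chains H2-DMb1 and H2-DMb2 had 0.446 ± 0.0703 and 0.489 ± 0.0987 CPM (SD, n = 3). H2-DMa shares 10.4% of its exons with Brd2 on the opposite strand, and H2-DMb1 shares 27.2% of its 50-base windows with H2-DMb2, so these 3 values are uncertain. H2-Eb1, the beta chain of the I-E molecule, had 3, 15 and 8 counts. H2-Oa, a chain of the H2-DM inhibitor H2-O, had 1, 2 and 0 counts, and H2-Eb2, H2-Ea-ps and H2-Ob had 0 in every library.

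Around H2-Ab1, within 150 kilobases to either side, 9 of 16 protein-coding genes were above the floor and 5 had 0 counts in every library. The 8 above the floor other than H2-Ab1 all began at lower coordinates, on the side of Tap1, Psmb8 and H2-DMa. Of the 7 not above it, 6 lay at higher coordinates, from H2-Aa at 25.1 kilobases to BC051142 at 141 kilobases.

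**Figure D2:**
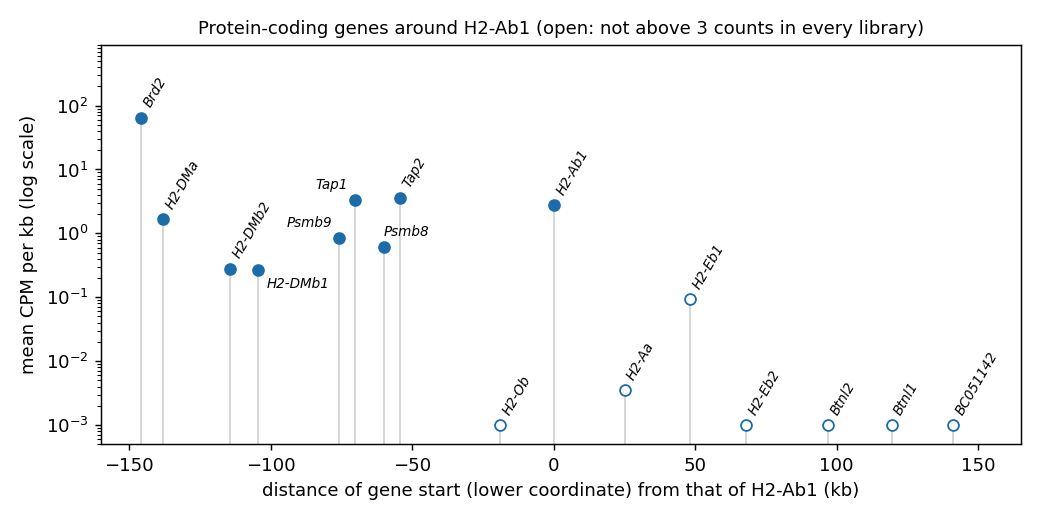
Mean level of each of the 16 protein-coding genes around H2-Ab1, in CPM per kilobase of merged exons on a log axis, by the distance of the gene's lower coordinate from that of H2-Ab1 in kilobases. Open points are genes not above 3 counts in every library, those with 0 counts are drawn at the bottom of the scale, and no gene to the right of H2-Ab1 has a filled point.

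The other DNA-binding and coactivating genes of class II transcription were above the floor, 7 of 8 in all, with Ciita the exception. Rfx5, Rfxap and Rfxank, the subunits of the RFX complex that binds the X box, had 17.02 ± 0.701, 48.0 ± 3.02 and 17.8 ± 1.18 CPM (SD, n = 3). Rfxank shares 33.8% and Rfx5 26.8% of their exons with a gene on the opposite strand. Nfyc, a subunit of the NF-Y complex that binds the Y box, was the highest of the list per kilobase of merged exons. It had 22.7 ± 0.313 CPM per kilobase (SD, n = 3), and its libraries overlapped those of Rfxap, at 21.4 ± 1.35. Per kilobase of 1 mRNA Rfxap was higher, at 68.9 ± 4.34 against 33.3 ± 0.459 for Nfyc.

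Genes of the endosomes in which class II molecules are loaded were mostly present, 7 of 8 above the floor. The exception was Ctss, which encodes cathepsin S, the protease known for trimming the invariant chain in B cells and dendritic cells. It had 5, 6 and 2 counts in replicates 1, 2 and 3. Cd63, a membrane protein of late endosomes, had the highest level of this list, with 296 ± 16.4 CPM per kilobase (SD, n = 3).

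Among genes whose products meet CD74 at the cell surface, 4 of 6 were above the floor. Mif, the ligand, had 403, 456 and 384 CPM in replicates 1, 2 and 3, a mean of 414 ± 37.3 CPM (SD, n = 3). That was 83.0 ± 1.85 times the level of Cd74 per kilobase of merged exons (SD, n = 3), with Mif the higher in 3 of 3 libraries. The ratio was 95.4 per kilobase of 1 mRNA and 36.8 on CPM with no length. Sequence shared with other genes was not examined for Mif. Cd44, the co-receptor, had 190 ± 7.62 CPM (SD, n = 3), and Ddt, a relative of Mif, had 13.8 ± 1.12, although Ddt shares 30.01% of its exons with another gene model. Cxcr4 had 0.801, 0.467 and 0.380 CPM. Ackr3 had 12, 18 and 2 counts, and Cxcr2 had 0 in every library.

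On the class I side, H2-K1 lies on chromosome 17 from 33996017 to 34000347 and H2-D1 on the same chromosome from 35262730 to 35267499. H2-K1 had 70.7, 76.0 and 77.2 CPM in replicates 1, 2 and 3, a mean of 74.6 ± 3.43 (SD, n = 3). H2-D1 had 4991, 5421 and 4668 counts in turn, which gave a mean of 104.8 ± 5.01 CPM (SD, n = 3). Per kilobase of merged exons, H2-D1 was 1.60 ± 0.0545 times H2-K1 (SD, n = 3) and higher in 3 of 3 libraries. Per kilobase of 1 mRNA this ratio was 1.08 ± 0.0369 (SD, n = 3). H2-K1 shares 8.79% and H2-D1 14.3% of their 50-base mRNA windows with other genes, mostly other class I heavy chains, and class I genes differ between mouse strains, so the authors' counting could have split reads among them.

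B2m, on chromosome 2 from 122147686 to 122153083, had 431, 449 and 427 CPM, a mean of 435.8 ± 12.0 (SD, n = 3). Its level per kilobase, 506.8 ± 13.9 (SD, n = 3), was above that of 99.6% of the detected coding genes. The light chain stood at 7.68 ± 0.270 times H2-K1 and H2-D1 summed, per kilobase of merged exons (SD, n = 3), and at 5.29 ± 0.195 times per kilobase of 1 mRNA. It shares none of its 50-base windows with another gene.

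The promoters of these genes are shown because boxes of these kinds are known from class I and class II promoters. Only exact letter matches were searched, so a known box that departs from the letters is left unmarked. Whether a marked match is the known box was not tested. Sequences are from RefSeq on GRCm38.p6, 5′ to 3′ on the gene's own strand, the 250 bases before the start, with base -1 next to it. Windows were taken for 7 of the 10 genes, and none was taken for Cd74, H2-Ab1 or Ciita. The start is that of RefSeq, and the windows of H2-D1, Tapbp and Psmb8 lie wholly within the GENCODE gene spans given here, which begin farther upstream. Capitals mark matches, on either strand, to a Y box (CCAAT), an X box (CCTNGNNAC), 2 forms of the core of an interferon-stimulated response element (GAAANNGAA and GAANNGAAA) and a κB site (GGGNNTCCC). H2-K1 covers chr17:34000348-34000597 on the minus strand, B2m chr2:122147437-122147686 on the plus strand and H2-Aa chr17:34287824-34288073 on the minus strand.
H2-K1: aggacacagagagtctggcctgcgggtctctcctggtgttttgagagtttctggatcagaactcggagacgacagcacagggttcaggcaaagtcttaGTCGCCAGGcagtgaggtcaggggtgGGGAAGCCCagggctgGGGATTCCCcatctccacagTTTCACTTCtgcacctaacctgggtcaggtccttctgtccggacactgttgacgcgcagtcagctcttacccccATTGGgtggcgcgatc
B2m: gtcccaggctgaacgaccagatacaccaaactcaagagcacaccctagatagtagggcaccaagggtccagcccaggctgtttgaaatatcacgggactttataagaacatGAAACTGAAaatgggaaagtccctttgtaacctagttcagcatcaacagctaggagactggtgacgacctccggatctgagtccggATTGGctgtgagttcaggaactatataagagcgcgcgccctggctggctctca
H2-Aa: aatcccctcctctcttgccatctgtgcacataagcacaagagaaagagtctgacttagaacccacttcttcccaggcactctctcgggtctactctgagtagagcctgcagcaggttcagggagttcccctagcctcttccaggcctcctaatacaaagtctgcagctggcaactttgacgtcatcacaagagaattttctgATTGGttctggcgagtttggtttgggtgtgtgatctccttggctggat

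The H2-K1 window held matches to the Y box at -16, the X box at -152, the second response element form at -90 and the κB site at -126 and -110. The H2-D1 window held the same kinds, with Y boxes at -76 and -53, the X box at -212, the response element at -150 and κB sites at -186 and -170. Each position is the first base of the match as printed. From the last κB match to the end of the response element, both genes had 29 bases, which differed at 1 base (A17T, the H2-K1 base first, counted from 1 at the 5′ end of the stretch), at chr17:34000429-34000457 on the minus strand for H2-K1 and chr17:35262924-35262952 on the plus strand for H2-D1.
H2-K1: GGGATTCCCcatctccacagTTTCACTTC
H2-D1: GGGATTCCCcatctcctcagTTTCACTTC

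The pair of windows shared an identical run of 47 bases, and 51 of the 231 stretches of 20 bases in the H2-K1 window (22.1%) also occurred in the H2-D1 window. B2m had a Y box at -53 and the first response element form at -139. The H2-Aa window, of a gene under the floor, had a Y box at -48, as had Tap1 at -222 and Tapbp at -248 and -165, and Psmb8 had no match. Of 27025 RefSeq promoter windows of this length, 34.5% held a Y box match, 13.5% an X box match, 7.16% and 6.35% the 2 response element forms and 4.65% a κB match. These matches are letters in a window and were not tested as binding sites, and a window without a match may still hold a box. The second response element form was added after a first search.

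Of the 14 matched class I heavy chain genes, H2-K1 and H2-D1 among them, 13 were above the floor, with Cd1d1, which encodes a lipid presenting molecule, at 0 in every library. Per kilobase of merged exons, H2-D1 was the highest of them. H2-Q7 was the lowest of those above the floor on this scale, with 0.370 ± 0.0283 CPM per kilobase (SD, n = 3). Per kilobase of 1 mRNA, H2-Q7 had 1.06 ± 0.0807 and was not the lowest. H2-Q7 shares 40.2% of its 50-base windows with other genes, so its value is uncertain.

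Tap1 and Tap2 encode the pair of chains that form the peptide transporter. Tap1 lies on chromosome 17 from 34187553 to 34197225 and had 18.01, 19.48 and 18.04 CPM in replicates 1, 2 and 3, a mean of 18.5 ± 0.840 (SD, n = 3). Tap2 had 12.6, 13.6 and 14.3 CPM. Per kilobase of merged exons, Tap1 was 0.949 ± 0.0697 times Tap2 (SD, n = 3), and per kilobase of 1 mRNA it was 1.60 ± 0.118 times Tap2, so which of the pair was higher turned with the length used.

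Tapbp encodes tapasin and lies on chromosome 17 from 33915899 to 33929292. It had 135.6, 153.7 and 142.0 CPM in replicates 1, 2 and 3, a mean of 143.8 ± 9.18 (SD, n = 3). Per kilobase of merged exons it stood at 11.7 ± 0.308 times Tap1, and at 7.91 ± 0.208 times per kilobase of 1 mRNA (SD, n = 3). Of its exons, 24.9% overlap a gene on the opposite strand and other transcripts hold 21.02% of its 50-base windows, chiefly those of the overlapping model Gm19412, so the value is uncertain. Above the floor were all 9 class I loading genes examined. Those of general chaperones in the list were high, with Calr, for calreticulin, at 431 ± 5.44 and Pdia3 at 186 ± 3.74 CPM per kilobase (SD, n = 3). Erap1, which trims peptides in the endoplasmic reticulum, was the lowest, at 2.24 ± 0.107 CPM per kilobase.

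Psmb8 encodes a catalytic subunit of the immunoproteasome, the form of the proteasome that takes the place of the constitutive one in immune cells and after interferon gamma. It lies on chromosome 17 from 34197721 to 34201454. It had 96, 104 and 101 counts in replicates 1, 2 and 3, a mean of 2.10 ± 0.169 CPM (SD, n = 3). It was the lowest of the 6 class I genes per length, at 0.621 ± 0.0499 CPM per kilobase (SD, n = 3), above 16.7% of the detected coding genes. Its exons overlap Gm20496 on the opposite strand over 14.7% of their length.

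Each immunoproteasome subunit was set beside the constitutive subunit whose place it takes. Psmb8 made up 0.606%, 0.572% and 0.699% of Psmb8 and Psmb5 together in replicates 1, 2 and 3, per kilobase of merged exons. Psmb9 made up 0.722% ± 0.132 of Psmb9 and Psmb6, and Psmb10 made up 22.2% ± 1.87 of Psmb10 and Psmb7 (SD, n = 3). The shares of Psmb8 and Psmb9 were under that of Psmb10 in 3 of 3 libraries. Sizes moved with the length used, to 1.29% for Psmb8, 0.833% for Psmb9 and 11.2% for Psmb10 per kilobase of 1 mRNA. Psmb5 shares 57.1% of its 50-base windows with other genes, mostly 1 processed copy, Psmb7 shares 28.1% and Psmb9 12.5%, so the shares are uncertain. Psme1 and Psme2, which encode the proteasome activator PA28, had 51.5 ± 1.84 CPM (SD, n = 3) and 30.6, 29.8 and 29.6 CPM. Psme2 shares 59.3% of its 50-base windows with Psme2b.

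**Figure D3:**
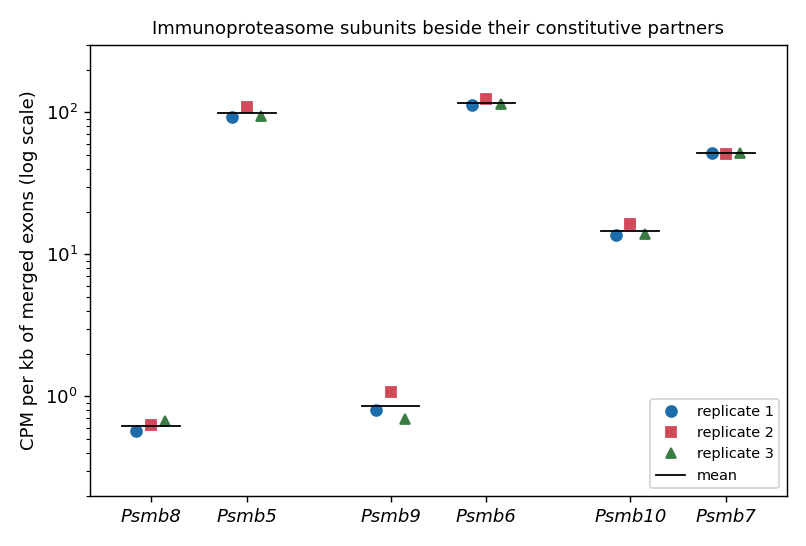
Level of 3 immunoproteasome subunits, each beside its constitutive partner, in CPM per kilobase of merged exons on a log axis for each of the 3 libraries, with bars for the means. Psmb8 at 0.621 and Psmb9 at 0.855 lie far under their partners, and Psmb10 at 14.7 is nearer to Psmb7 at 51.5.

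Ordered by CPM per kilobase of merged exons, the 10 genes ran from B2m through H2-D1, Tapbp, H2-K1, Cd74, Tap1, H2-Ab1 and Psmb8 to Ciita and H2-Aa. The libraries of H2-D1 and Tapbp overlapped, with means of 40.6 ± 1.94 and 39.6 ± 2.53 (SD, n = 3), and so did those of Ciita and H2-Aa. The other neighbours did not overlap. With the length of 1 mRNA the order was the same, but Tapbp and H2-K1 overlapped, and so did Tap1 and H2-Ab1.

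Cd74 thus stood between the class I genes. B2m was 75.9 ± 5.07 times Cd74 per kilobase of merged exons, H2-D1 6.09 ± 0.475 times, Tapbp 5.93 ± 0.428 times and H2-K1 3.81 ± 0.427 times (SD, n = 3). Tap1 was lower, at 0.506 ± 0.0294 times Cd74, and Psmb8 at 0.0933 ± 0.0140 times (SD, n = 3). Per kilobase of 1 mRNA the ratio of H2-K1 was 5.81, that of Tap1 0.788 and that of Psmb8 0.163, each on the same side of Cd74. On CPM with no length the ratio of Tap1 was 1.65 ± 0.0959 (SD, n = 3), so the order of Tap1 and Cd74 turned with the division by length.

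The genes nearest to Cd74 in log2 CPM per kilobase over the 3 libraries, by Euclidean distance, were Rnf157, Chchd5 and Zfp628, with distances of 0.06, 0.06 and 0.07. Their means were 6.80, 6.77 and 6.54 CPM per kilobase, against 6.70 for Cd74. With 3 libraries of 1 condition this is likeness of level and says nothing of shared control.

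The activators of class I genes were all above the floor, 8 of 8. Nlrc5, the class I counterpart of Ciita, had 9.96 ± 0.208 CPM (SD, n = 3), with 488, 502 and 443 counts, against 5, 2 and 8 for Ciita. Per kilobase of merged exons Nlrc5 was nevertheless the lowest of its list, at 1.17 ± 0.0245, and Rela, a subunit of NF-κB, was the highest, at 74.4 ± 5.30 (SD, n = 3). Of 7 genes of interferon gamma signalling, 6 were above the floor, with the kinase Jak1 highest, at 36.2 ± 0.954 CPM per kilobase (SD, n = 3). Ifng itself had 0 counts in every library.

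**Figure D4:**
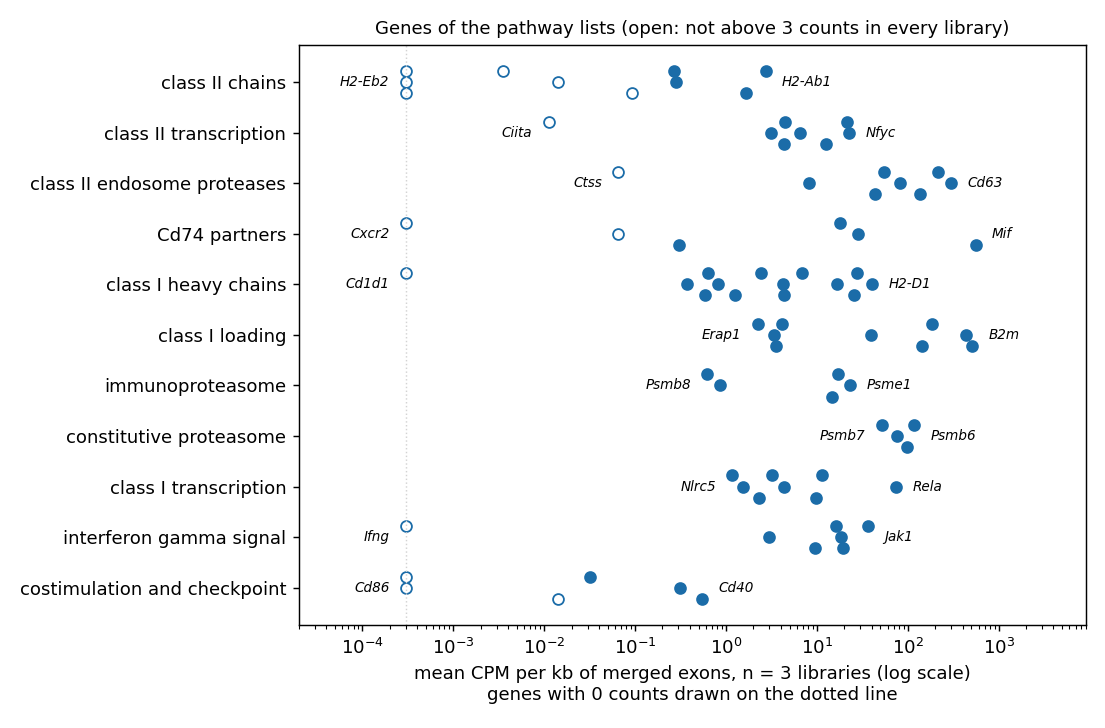
Mean level of every matched gene of 11 antigen presentation lists, in CPM per kilobase of merged exons on a log axis, with the highest and lowest gene of each list named. Filled points are genes above 3 counts in every library, the class II chains reach up to 2.73 for H2-Ab1, and the class I loading genes run from 2.24 for Erap1 to 506.8 for B2m, so that the ranges overlap.

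Markers of the cells that normally carry class II were examined beside Cd74 and H2-Ab1. Of the B cell markers, Pax5 was at 0 in every library, Ms4a1 and Cd79b had 1, 0 and 0 counts each, and Cd79a had 8, 1 and 1, so none of these was above the floor. Of 4 dendritic cell markers only Zbtb46 was above it, the sum ran from 5.19 to 5.53 CPM, and Flt3 and Itgax were at 0. Xcr1 had 1, 6 and 0 counts in replicates 1, 2 and 3. Of 6 macrophage markers Cd68, Cd14 and Csf1r were above the floor, with a sum between 15.4 and 17.5 CPM. Adgre1 had 1, 0 and 0 counts, Itgam 0, 2 and 5, and Lyz2 1, 12 and 2. Both Xcr1 and Lyz2 were over 3 counts in replicate 2 only. Ptprc, carried by nearly all white blood cells, had 0, 1 and 0 counts, against 560, 606 and 458 for Cd74. Of the pair of blood markers Spi1 was above the floor, with 7, 12 and 14 counts, and their sum was between 0.140 and 0.313 CPM. Of 4 endothelial markers 2 were above the floor (sum 1.95 to 2.40 CPM, Cdh5 at 0, 0 and 1 counts, Tie1 at 1, 1 and 1). Of 4 epithelial markers 2 were (sum 38.3 to 40.3 CPM, nearly all Krt18). Epcam had 0, 1 and 0 counts and Cdh1 4, 12 and 1. In a bulk sample, a few cells with much Cd74 RNA and many cells with little cannot be told apart.

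These 8 genes were tested for variation between the libraries beyond counting error by the chi-square statistic (2 degrees of freedom), with adjustment after Benjamini and Hochberg over the 13814 genes tested. Of the 8, 6 varied, where 43.9% of all genes tested did. Genes with more counts pass this test more easily, and the share was not matched to the counts of the 8. The adjusted p of this chi-square was 4.88e-12 for Tapbp, 1.24e-06 for B2m, 4.3e-05 for H2-D1, 0.00189 for H2-K1, 0.00727 for H2-Ab1 and 0.0319 for Cd74. Tap1 and Psmb8 did not pass, with adjusted p of 0.242 and 0.617 by the same chi-square, which does not show that they were even.

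Much of this variation went with replicate 2. Between replicates 1 and 3 alone, 1 of the 8 varied, H2-K1 with a chi-square adjusted p of 0.005 after Benjamini-Hochberg adjustment, where 12.5% of 14037 genes did. Replicate 2 had the highest CPM in 6 of the 8, all but H2-K1 and Psmb8, where it was highest in 39.7% of all genes tested. Over the 8 genes, the median difference of replicate 2 from the mean of replicates 1 and 3 was 0.11 on the log2 scale, against 0.0027 over all 13770 tested genes with an mRNA. The 8 genes' mRNAs had a median GC content of 56.5%, against 50.4% for those tested genes, and the part of GC content in the difference was not tested. B2m, the lowest of the 8 in GC content at 41.2%, had a log2 difference of 0.07, and 1 gene does not answer this.

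**Figure D5:**
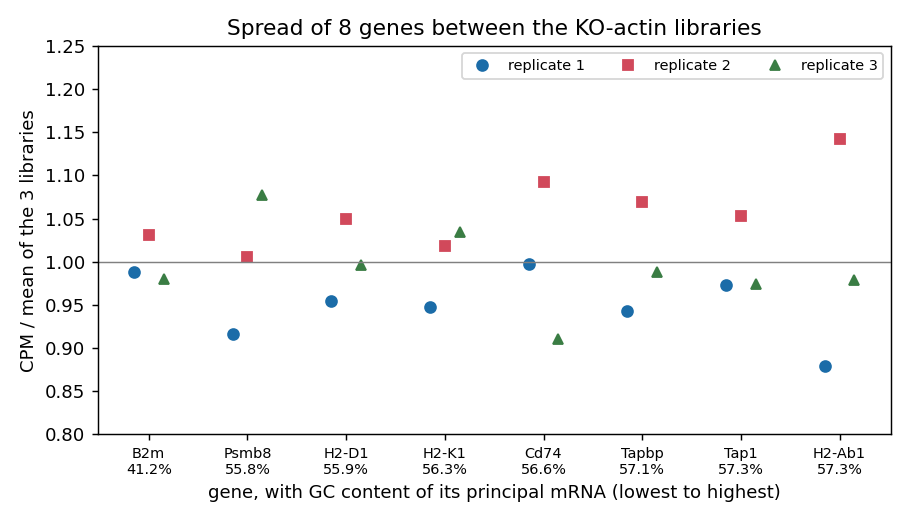
CPM of the 8 tested genes in each library divided by the gene's mean over the 3 libraries, with genes ordered by the GC content of their mRNA. Replicate 2 is the highest point for 6 of 8 genes, and H2-Ab1 spreads the widest.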

How the data were processed

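The 3 polyadenylated RNA libraries of KO-actin MEFs form 1 group. For each, the authors deposited read counts of 46603 Ensembl genes, not normalized, and 0 rows named no gene. The submitters' processing notes list Trimmomatic, FastQC, HISAT2 and HTSeq with the builds mm10 and GRCm38. Versions, the strand setting, the annotation and the treatment of reads matching several genes are not given in the sources used here, and this can change the counts of overlapping or near-identical genes.

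Symbols were matched by identifier for 46005 genes. Library sizes were scaled by TMM over all rows in edgeR 4.0.16 under R 4.3.3, and CPM were divided by merged exon length from GENCODE M21 for comparisons between genes. The length of 1 principal mRNA was an alternative added after values had been seen. Other alternatives were DESeq2 1.42.0 size factors, total counts, other count filters, CPM with no length and leaving out each library. Variation was judged by the chi-square statistic of a gene's counts (2 degrees of freedom) at an adjusted p of 0.05 (Benjamini-Hochberg), over the genes for which each library gave 10 counts or more. This test was checked on simulated counts with counting error alone, so the check does not cover the larger spread between these libraries. Total counts of 44383636 to 49932446 set the precision. Shared sequence was the share of 50-base windows of an mRNA found in transcripts of another gene, since the read length is not known. Promoters were searched on both strands in the RefSeq table for GRCm38.p6. Python 3.11.15, numpy 2.4.6, pandas 2.3.3, scipy 1.17.1 and matplotlib 3.10.9 were used.

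The 10 genes and the gene lists were chosen with earlier results of these data known. Genes were named if they were among the 10, if they were in the lists of class II chains, class II transcription, CD74 partners, class I loading or the immunoproteasome, if they had the highest or lowest level of another list or were at or under the floor, or if they were among the 3 genes nearest to Cd74. H2-Q7, Psmb5, Csf1r, Cd14, Cd80, Cd274 and Actb, and the neighbours of H2-Ab1, were named outside this rule, after their values had been seen. One item of the marker lists is not reported here.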

Additional observations from a re-analysis of the deposited data

How the results depend on the processing

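No paired analysis was possible because the series holds 1 condition. Scaling by DESeq2 size factors or total counts moved none of the 10 member means by more than 0.335%. With 1 library left out the largest change was 49.5%, for H2-Aa, which was under the floor. The count of genes above the floor stayed at 8 with at least 10 counts or at least 1 CPM, and was 8 to 9 with 1 library left out. Leaving out 1 library gave a ratio of Cd74 to the classical class II chains of 2.22 to 2.49, and shares of 0.589% to 0.652% for Psmb8, 0.653% to 0.785% for Psmb9 and 21.1% to 22.7% for Psmb10.

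Length had the larger effect. On CPM with no length the Cd74 ratio was 1.57, and the shares were 2.31% for Psmb8, 1.40% for Psmb9 and 12.4% for Psmb10. Per kilobase of 1 principal mRNA, added after the data were seen, they were 1.36, 1.29% for Psmb8, 0.833% for Psmb9, which moved by less than the spread between libraries, and 11.2% for Psmb10. Merged exons count every annotated transcript, used or not, and which transcripts these cells made was not tested.

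With 1 library left out, 1748 to 4786 genes varied beyond counting error, against 6063, and 1 to 5 of the 8 genes tested did. The lowest of each was without replicate 2. Under total counts 5 of the 8 varied, in place of 6. Values of H2-Aa and Ciita rest on at most 8 counts a library, so depth limits them.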

Other observations

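The costimulation and checkpoint genes, which act beside MHC molecules at the contact with a T cell, were low. Of 6 examined, 3 were above the floor. Cd40, a receptor through which T cells signal to presenting cells, was the highest, with 99, 97 and 73 counts in replicates 1, 2 and 3 and 0.547 ± 0.0580 CPM per kilobase of merged exons (SD, n = 3). Cd274, which encodes the checkpoint ligand PD-L1, had 67, 69 and 30 counts, and the 3 values varied beyond counting error with an adjusted p of 0.00488 by the chi-square with Benjamini-Hochberg adjustment. Replicate 3 was the low one. Cd80 had 4, 9 and 4 counts. Cd86 and Pdcd1lg2 had 0 counts in every library, and Icam1, which encodes an adhesion molecule, had 5, 3 and 1.

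Cxcr4 and Ackr3, chemokine receptors described as partners of CD74, had their lowest counts in replicate 3, the smallest library. Cxcr4 had 40, 23 and 17 counts in replicates 1, 2 and 3, and Ackr3 had 12, 18 and 2. In CPM replicate 3 stayed the lowest for both. For Cxcr4, however, at 0.801, 0.467 and 0.380 CPM, replicate 2 lay near replicate 3, and replicate 1 was the highest. Cxcr4 varied between the libraries with an adjusted p of 0.0339 by the chi-square with Benjamini-Hochberg adjustment, and had 0.061 without replicate 2. Ackr3 had too few counts for this test. The shared low library was noticed after the values had been seen, and was not itself tested.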
